A study of Drosophila melanogaster with 15 samples.

Results

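The comparison described here is that of trained with naïve flies in which the histone methyltransferase gene trithorax (trx) was knocked down in the mushroom body (trx-KD). Its libraries were chosen by the genotype and treatment given in the labels, which assign 7 of the 15 libraries of the series to it, 4 from trained trx-KD flies and 3 from naïve trx-KD flies. The other 8 libraries, from trained and naïve control flies, entered no fit of this comparison and were used only where a trx-KD response was set beside the control response. Both genotypes are in a w* background and carry the R14H06-Gal4 driver, which is active in Kenyon cells, the nuclear tag UAS-unc84::GFP, and UAS-Dicer2, which strengthens RNA interference. The trx-KD flies also carry P{GD4502}v37715, a single RNA interference line, on the chromosome opposite the tag. Each library was made from nuclei isolated from pooled heads by beads that bind the GFP tag (INTACT), so nuclear RNA was measured. The labels give no age, sex, training protocol or time after training.

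The mushroom body (MB) is the insect brain centre for associative learning, and its intrinsic neurons are the Kenyon cells. In these cells, coincident sensory and reinforcing inputs act through calcium and cAMP, with the adenylyl cyclase Rutabaga and protein kinase A as central components. Neuronal activity also switches on a small set of transcription factor genes, of which Hr38 and stripe (sr) are the best known in flies. Trithorax belongs to a complex that methylates histone H3 at active genes and opposes Polycomb repression.

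The trx transcript itself was slightly lower in trx-KD libraries than in controls and was not called for training. On a scale common to all 15 libraries, trx (FBgn0003862) had 499, 527, 550 and 507 CPM (counts scaled to the size of each library) in trained trx-KD flies and 546, 539 and 525 CPM in naïve trx-KD flies, while the 8 control libraries lay between 562 and 609 CPM. Every trx-KD library was therefore below every control library, by a small margin. The log2 fold change of trx with training in trx-KD flies was -0.04 ± 0.05 (SE; adjusted p = 0.778, from the quasi-likelihood test of edgeR after Benjamini-Hochberg correction). The trx protein was not measured in these data.

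Several trx-KD libraries stood apart from the rest before any gene was tested. The libraries held 16375276 to 45976562 reads on genes, with naïve replicate 1 the deepest, and pairs of replicates correlated at 0.976 to 0.994 in log2 CPM across genes. Trained replicates 3 and 4 lay apart on the first principal component, which held 36.7% of the variance. Trained replicate 4 carried reads of the yolk protein genes Yp1 (139 CPM), Yp2 (109 CPM) and Yp3 (101 CPM), products of female fat body and ovary, whereas in the other 6 libraries Yp1 reached at most 1.1 CPM and Yp3 lay between 2.45 and 11.9 CPM. Naïve replicates 1 and 2 carried reads of the antennal gene a10 (24.1 and 31.7 CPM), which was at or below 0.53 CPM in the other 5 libraries, and of Obp83a. The antennal genes Obp28a and Orco did not set these libraries apart, since trained replicate 2 had 11.1 CPM of Obp28a and 5 CPM of Orco, the olfactory co-receptor gene, beside 13.3 and 10.6 CPM of Obp28a and 5.22 and 8.12 CPM of Orco in naïve replicates 1 and 2. The part that these reads played in the results was not tested.

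Kenyon cell markers were present in every library, with reads of other head cells beside them. The 12 Kenyon cell markers tested summed to 17311, 18872, 19564 and 19731 CPM in trained trx-KD flies, against 16300, 15295 and 16195 CPM in naïve trx-KD flies. The sums did not overlap. All 12 markers had a positive estimate, beside 48.9% of all genes tested, and 5 were higher without overlap between groups, beside 6.89% of all genes. None of the 12 passed the test, and their median log2 fold change was 0.18 in trx-KD flies and 0.07 in control flies. The 15 photoreceptor markers summed to 11384, 9232, 9521 and 8666 CPM in trained flies, against 8612, 14990 and 9575 CPM in naïve flies, so naïve replicate 2 alone was high. Their median of -0.28 became -0.02 without that library and -0.45 without naïve replicate 1. In control flies the median of the 15 markers was -0.27, with 2 called lower, beside 3.35% of all genes. Muscle markers ranged from 6139 to 12047 CPM in trained flies and from 7533 to 9481 CPM in naïve flies, with trained replicates 3 and 4 highest. In such bulk samples, more nuclei of a cell type and more RNA per nucleus cannot be told apart, and the part of cell composition in the differences below was not tested.

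**Figure D1:**
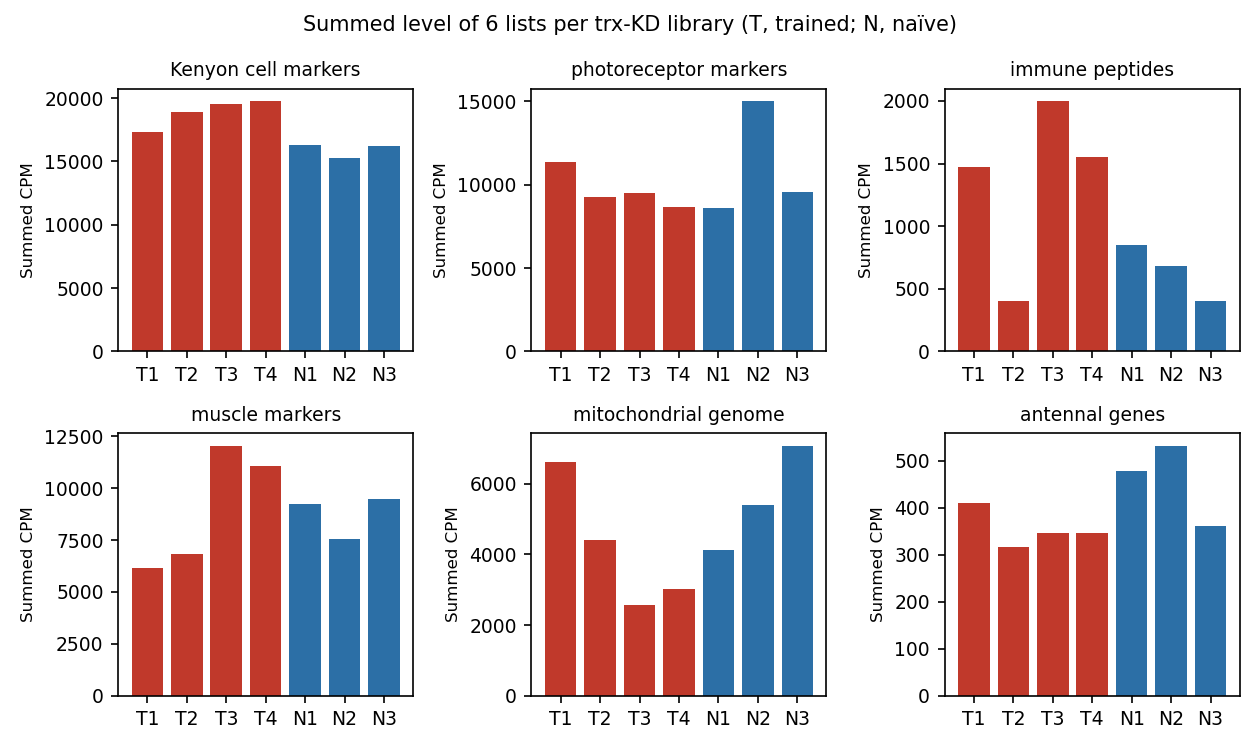
Summed CPM (y axes, starting at 0) of the tested members of 6 gene lists in each trx-KD library, with the 4 trained libraries (T1 to T4, red) left of the 3 naïve libraries (N1 to N3, blue). Kenyon cell markers sat between 17311 and 19731 CPM in trained flies and between 15295 and 16300 CPM in naïve flies, whereas the 5 other lists overlapped between groups.

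Training was followed by a small set of expression changes in trx-KD MB nuclei. Of 9370 genes tested, 50 (0.534%) differed between trained and naïve trx-KD flies at an adjusted p below 0.1, of which 32 (0.342%) were higher and 18 (0.192%) lower in trained flies. At an adjusted p below 0.05 the number was 18. An unadjusted p below 0.05 was found for 1122 genes, or 12%. Among the higher genes were the activity-regulated transcription factor genes Hr38, sr and CrebA, the peptide signalling genes jeb, Lgr1 and SIFaR, and the extracellular matrix genes Tig and LanB2. The lower genes included the enzyme genes tobi, Hpd, bgm and Cyp6g1, and the transcription factor genes Kr-h1, dsx and foxo. Most changes were modest: 11 of the 50 genes exceeded 1 on the log2 scale in either direction, and 15 of the 32 increases were below 0.5.

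In each of the 50 genes the trained and naïve libraries did not overlap, beside 646 higher (6.89%) and 481 lower genes (5.13%) without overlap among all genes tested. All 50 kept their direction whichever library was left out, which groups without overlap all but fix in advance. The number called moved with the library left out, to 147 without trained replicate 1 and 160 without trained replicate 2. It was 12 without trained replicate 4, and 6, 4 and 16 without naïve replicates 1, 2 and 3. Hr38, sr and tobi were called in all 7 of these fits, 9 genes in at least 5, and 37 in at most 3. With scaling by library size alone, 16 genes were higher and 21 lower, in place of 32 and 18. When naïve replicates 1 and 2, which held a10 and Obp83a, were both left out, edgeR called 0 genes, with 324 at an unadjusted p below 0.05, a fit in which the lone naïve library was assumed to vary like the trained ones. The p-values measure only the spread between these libraries.

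Hr38, which encodes the fly NR4A nuclear receptor, had the smallest adjusted p among the increases. It had 370, 344, 369 and 370 CPM in trained trx-KD flies, against 219, 181 and 214 CPM in naïve trx-KD flies. The trained libraries were nearly level and all lay far above the naïve ones, with a log2 fold change of 0.83 ± 0.07 (SE; 1.77-fold; adjusted p = 0.00369 by edgeR). Hr38 (FBgn0014859) lies on chromosome arm 2L at 20683462 to 20714588 on the minus strand, in the coordinates of BDGP6.54, and 3 annotated genes overlap it on the other strand.

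The EGR-family zinc finger gene sr behaved similarly. Its levels were 226, 241, 266 and 264 CPM in trained trx-KD flies and 163, 134 and 144 CPM in naïve trx-KD flies. Every trained library exceeded every naïve one, and the log2 fold change was 0.76 ± 0.09 (adjusted p = 0.0118 by edgeR). The sr gene (FBgn0003499) spans 18090803 to 18135583 on the plus strand of chromosome arm 3R. CrebA, a bZIP factor known for its control of secretory pathway genes, had 101, 84.1, 104 and 116 CPM in trained flies, against 67.1, 65.3 and 65.8 CPM in naïve flies. The naïve libraries lay within a narrow range below all trained libraries, and the log2 fold change was 0.62 ± 0.10 (adjusted p = 0.05 by edgeR).

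**Figure D2:**
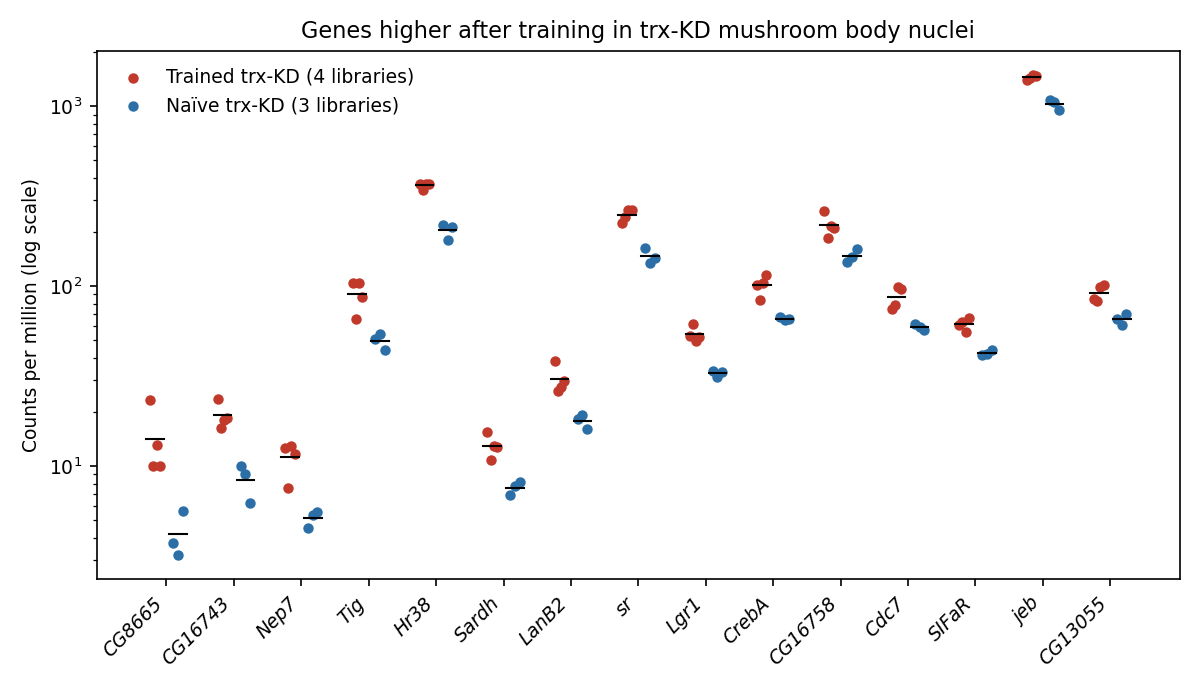
CPM (y axis, log scale) of the 15 largest increases among called genes whose mean log2 CPM was 3 or more, ordered by log2 fold change, in each trained (red, left) and naïve (blue, right) trx-KD library. Black lines are group means. The groups are separate for each gene, with Hr38 between 344 and 370 CPM in trained flies and between 181 and 219 CPM in naïve flies.

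Hr38, sr and CrebA were the 3 called members of 13 tested genes on a list of activity-regulated genes. The list was chosen with earlier results of these data known, so its counts are a description. In all, 12 of the 13 had a positive estimate and 6 were higher without overlap, with a median log2 fold change of 0.14. Over all genes, 0.342% were called higher, 48.9% had a positive estimate and 6.89% were higher without overlap, with a median of -0.005. Ets21C, an ETS-domain factor induced by stress and JNK signalling, had 7.26, 3.83, 10.1 and 7.96 CPM in trained trx-KD flies, against 3.05, 2.96 and 3.23 CPM in naïve trx-KD flies. The trained libraries were higher but spread widely, and the log2 fold change of 1.25 ± 0.28 did not pass the test (adjusted p = 0.128 by edgeR). Atf3, a stress-responsive bZIP factor, had 302, 261, 413 and 347 CPM in trained flies and 254, 224 and 237 CPM in naïve flies. Here too the groups were separate but the test was not passed (0.47 ± 0.13; adjusted p = 0.255 by edgeR). Mef2, a MADS-box factor of Kenyon cells and muscle, was the other gene without overlap, at 776 to 860 CPM in trained flies and 716 to 762 CPM in naïve flies (log2 fold change 0.14 ± 0.06).

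The remaining activity-regulated genes overlapped between groups. The AP-1 genes kay and Jra had log2 fold changes of 0.14 ± 0.13 and 0.06 ± 0.10, and the JNK phosphatase gene puc had 0.13 ± 0.09. CrebB, the CREB factor required for long-term memory, had 84.6, 85.9, 89.3 and 81.3 CPM in trained trx-KD flies, against 84.4, 80.2 and 83 CPM in naïve trx-KD flies, a log2 fold change of 0.05 ± 0.06. Arc1 and Arc2, which encode capsid-forming proteins related to mammalian Arc, gave -0.04 ± 0.08 and 0.14 ± 0.22, and the PAS-domain gene dysf gave 0.07 ± 0.17. The estimates of Jra, CrebB, Arc1, Arc2 and dysf changed sign or reached 0 under at least 1 alternative, so no direction is given for them.

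Genes of peptide signalling also held increases. jeb, which encodes the secreted ligand of the receptor tyrosine kinase Alk, had 1397, 1436, 1497 and 1470 CPM in trained trx-KD flies and 1079, 1056 and 953 CPM in naïve trx-KD flies. Its log2 fold change was 0.49 ± 0.06 (1.41-fold; adjusted p = 0.0118 by edgeR), and the groups were separate. Alk itself overlapped between groups, with 551 to 636 CPM in trained flies, 609 to 626 CPM in naïve flies and an estimate of -0.07 ± 0.06.

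Lgr1, a receptor of the glycoprotein hormone family, had 52.8, 61.4, 49.8 and 51.9 CPM in trained trx-KD flies, against 33.6, 31.4 and 33.3 CPM in naïve trx-KD flies. All trained libraries were well above the naïve ones, with a log2 fold change of 0.72 ± 0.09 (adjusted p = 0.0148 by edgeR). SIFaR, the receptor of the neuropeptide SIFamide, had 61.2, 63.3, 55.4 and 66.7 CPM in trained flies and 41.7, 42.1 and 44 CPM in naïve flies, again without overlap (0.53 ± 0.08; adjusted p = 0.0435 by edgeR). Among the 13 tested genes of the peptide signalling list, jeb and Lgr1 were higher and none was lower. Of the 13, 10 had a positive estimate and 4 were higher without overlap, with a median of 0.17. Among all genes tested, 0.342% were called higher, 48.9% had a positive estimate and 6.89% were higher without overlap. The peptide gene sNPF, a Kenyon cell neuropeptide, had a log2 fold change of 0.17 ± 0.07 and overlapped between groups, as did the prohormone convertase gene amon (0.04 ± 0.08).

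On the cAMP and learning list all 17 tested genes had a positive estimate, with a median of 0.10, beside 48.9% positive among all genes. The 1 called gene was CrebA, which is also on the activity-regulated list, and 0.342% of all genes were called higher. In all, 7 of the 17 were higher without overlap, beside 6.89% of all genes. The catalytic subunit gene of protein kinase A, Pka-C1, had 1941, 2167, 2370 and 2335 CPM in trained trx-KD flies, against 1784, 1617 and 1762 CPM in naïve trx-KD flies. The groups were separate, but the log2 fold change of 0.36 ± 0.08 missed the threshold (adjusted p = 0.109 by edgeR). Its regulatory partner Pka-R2 (0.27 ± 0.07) and the phosphodiesterase gene dnc (0.20 ± 0.07) were also without overlap and did not pass, and the cyclase gene rut overlapped (0.15 ± 0.07). Pka-C1 and rut are also among the Kenyon cell markers, whose summed level was higher in every trained library.

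Of the synaptic release genes, 1 was higher. Rbp, which encodes the RIM-binding protein of the presynaptic active zone, had 1493, 1612, 1632 and 1631 CPM in trained trx-KD flies and 1317, 1280 and 1291 CPM in naïve trx-KD flies. Its log2 fold change was 0.30 ± 0.05 (adjusted p = 0.0737 by edgeR), and it was the called member of 13 tested genes on this list. Of the 13, 12 had a positive estimate and 6 were higher without overlap (median 0.14). Among all genes, 0.342% were called higher, 48.9% had a positive estimate and 6.89% were higher without overlap. The active zone scaffold gene brp (0.10 ± 0.05) and the complexin gene cpx (0.18 ± 0.06) had no overlap but did not pass. Outside the list, the choline transporter gene ChT reached 391 to 431 CPM in trained flies and 334 to 339 CPM in naïve flies (0.27 ± 0.05; adjusted p = 0.0984 by edgeR). Of cell surface and signalling genes, the immunoglobulin family gene side-II (0.27), the leucine-rich repeat gene kek1 (0.31) and the Ste20-like kinase gene msn, which acts upstream of JNK (0.32), were also higher. Hsp83, the fly Hsp90, was the 1 called member of 15 tested heat shock and chaperone genes, beside 0.342% of all genes called higher. Its levels were 387, 412, 369 and 367 CPM in trained flies and 301, 319 and 316 CPM in naïve flies (0.30 ± 0.06; adjusted p = 0.0948 by edgeR).

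Tig and LanB2, which encode extracellular matrix proteins, were higher, whereas the matrix genes Col4a1 and vkg were not called. Tig, which encodes an integrin-binding matrix protein, had 104, 65.7, 104 and 87.2 CPM in trained trx-KD flies, against 50.8, 54.3 and 44.1 CPM in naïve trx-KD flies. Trained replicate 2 was the lowest trained library and still exceeded all naïve ones, and the log2 fold change was 0.86 ± 0.15 (adjusted p = 0.0769 by edgeR). LanB2, the laminin gamma chain gene, had 38.4, 26.3, 27.7 and 29.9 CPM in trained flies and 18.3, 19.2 and 16.1 CPM in naïve flies (0.77 ± 0.14; adjusted p = 0.0769 by edgeR). The collagen IV genes Col4a1 and vkg, made by hemocytes and fat body, overlapped between groups, with estimates of -0.10 ± 0.13 and -0.12 ± 0.17. Nep7, a neprilysin-like peptidase gene, had 12.6, 7.6, 13 and 11.7 CPM in trained flies and 4.51, 5.32 and 5.58 CPM in naïve flies, with replicate 2 again the lowest trained library (1.14 ± 0.19; adjusted p = 0.0618 by edgeR).

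CG8665 had 23.3, 10, 13.1 and 10 CPM in trained trx-KD flies, against 3.76, 3.19 and 5.62 CPM in naïve trx-KD flies, a log2 fold change of 1.77 ± 0.32 to which trained replicate 1 contributed most (adjusted p = 0.0769 by edgeR). CG16743 had 23.6, 16.3, 18.1 and 18.6 CPM in trained flies and 9.99, 9.06 and 6.22 CPM in naïve flies, also without overlap (1.18 ± 0.19; adjusted p = 0.0468 by edgeR). Sardh, the sarcosine dehydrogenase gene, had 15.4, 10.8, 12.9 and 12.8 CPM in trained flies, against 6.89, 7.76 and 8.17 CPM in naïve flies (0.78 ± 0.14; adjusted p = 0.0769 by edgeR). Of these 3 genes, CG8665 varied most among the trained libraries. The replication kinase gene Cdc7 had 75.1, 78.8, 99.3 and 96.4 CPM in trained flies and 61.5, 59.1 and 57.4 CPM in naïve flies (0.56 ± 0.11). CG16758 had 261, 185, 217 and 211 CPM in trained flies, against 136, 146 and 161 CPM in naïve flies (0.57 ± 0.11). CG13055 completed the 15 largest increases, at 85.1, 83.3, 98.7 and 102 CPM in trained flies and 65.9, 60.6 and 70.2 CPM in naïve flies (0.49 ± 0.09). The other called increases were CG9733, CG5909, CG14186, CG44247, CG32204, CG2865, CG31191, l(1)G0320 and CG13784, with log2 fold changes of 0.29 to 1.69.

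The cuticle protein genes Ccp84Ab and Ccp84Aa, neighbours on chromosome arm 3R, had the largest ratios but few reads. Ccp84Ab had 59, 22, 91 and 46 reads in trained trx-KD flies and 5, 1 and 0 reads in naïve trx-KD flies. Ccp84Aa had 32, 13, 38 and 17 reads in trained flies and 3, 0 and 0 reads in naïve flies. Scaled for depth, the trained to naïve ratio was 41.8 for Ccp84Ab (exact 95% interval 18.9 to 115) and 38.3 for Ccp84Aa (12.7 to 189), intervals that cover counting error only. Both genes entered the test through their reads in trained flies, and they belong to a family of similar genes among which reads could be divided.

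Among the decreases, tobi stood out. This alpha-glucosidase gene, known as a target of brain insulin, had 48.4, 26.5, 26.8 and 26.8 CPM in trained trx-KD flies, against 140, 138 and 163 CPM in naïve trx-KD flies. The trained libraries all lay far below the naïve ones, with replicate 1 the highest of them, and the log2 fold change was -2.19 ± 0.20 (adjusted p = 0.00369 by edgeR). The gene (FBgn0261575) lies at 25344761 to 25346921 on the minus strand of chromosome arm 3R. tobi was the 1 called member of 9 tested genes of sugar and polyol metabolism, of which 8 had a negative estimate and 3 were lower without overlap (median -0.33), beside 0.192% called lower and 5.13% lower without overlap among all genes. The amylase gene Amy-d had 49.2, 28.9, 29.2 and 42.4 CPM in trained flies, against 59.6, 63.6 and 68.3 CPM in naïve flies, a log2 fold change of -0.77 ± 0.18 that did not pass (adjusted p = 0.147 by edgeR).

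Hpd, bgm, Cyp6g1, ACC and Got1, which encode metabolic enzymes, were also among the 18 decreases. Hpd, an enzyme of tyrosine breakdown, had 27.2, 26.4, 22.9 and 23.2 CPM in trained trx-KD flies, against 50.9, 40.7 and 45.9 CPM in naïve trx-KD flies. The groups were well apart, and the log2 fold change was -0.88 ± 0.10 (adjusted p = 0.0118 by edgeR). The very-long-chain acyl-CoA synthetase gene bgm had 13.4, 10.6, 12.1 and 10.3 CPM in trained flies and 19.1, 22.8 and 25 CPM in naïve flies (-0.94 ± 0.13; adjusted p = 0.0291 by edgeR). The cytochrome P450 gene Cyp6g1 had 29.4, 20.4, 17.3 and 19.6 CPM in trained flies, against 39.6, 40.2 and 45.4 CPM in naïve flies (-0.94 ± 0.16; adjusted p = 0.0675 by edgeR). In both genes trained replicate 1 was the nearest to the naïve libraries. The acetyl-CoA carboxylase gene ACC, the first step of fatty acid synthesis, had 712, 640, 606 and 638 CPM in trained flies and 784, 813 and 828 CPM in naïve flies (-0.32 ± 0.06), and the aspartate aminotransferase gene Got1 was also lower (-0.41 ± 0.08; adjusted p = 0.0948 for both by edgeR).

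**Figure D3:**
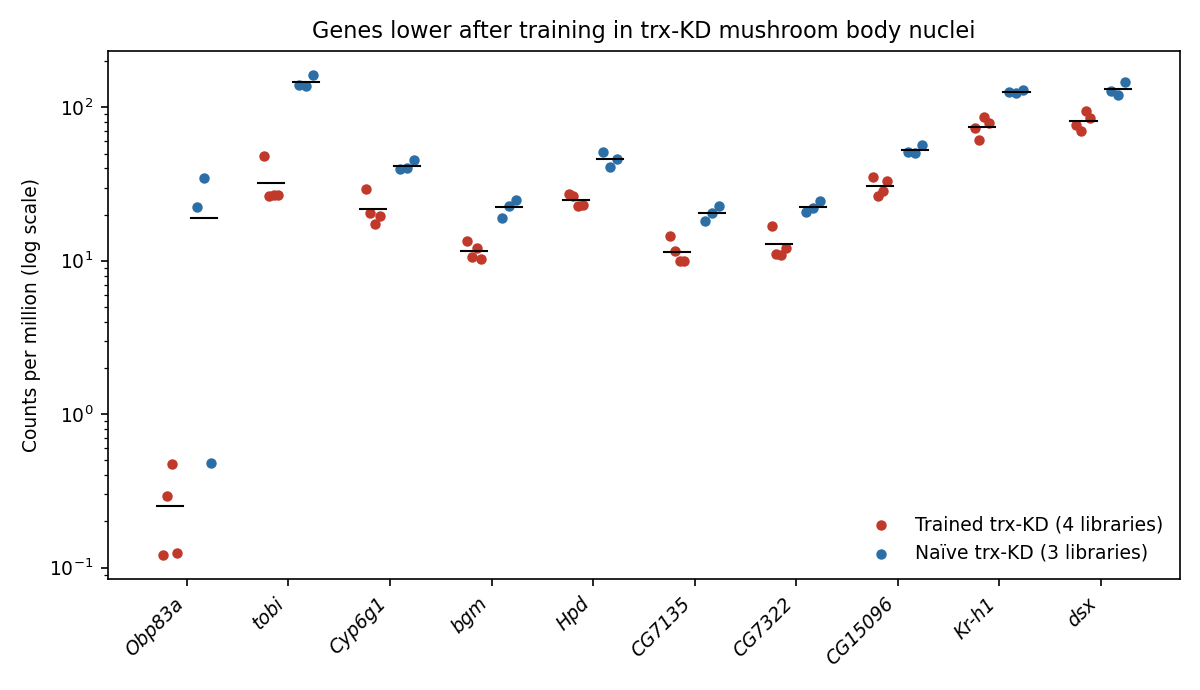
CPM (y axis, log scale) of the 10 largest decreases among called genes whose mean log2 CPM was 3 or more, ordered by log2 fold change, in each trained (red, left) and naïve (blue, right) trx-KD library. Black lines are group means. tobi lay between 26.5 and 48.4 CPM in trained flies and between 138 and 163 CPM in naïve flies, whereas for Obp83a naïve replicate 3 (0.478 CPM) was almost level with trained replicate 3 (0.472 CPM).

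The transcription factor genes Kr-h1, dsx and foxo were also lower after training. Kr-h1, a zinc finger gene induced by juvenile hormone, had 72.8, 61.3, 86.4 and 78.6 CPM in trained trx-KD flies, against 126, 124 and 129 CPM in naïve trx-KD flies. The gap between groups exceeded the spread within either, with a log2 fold change of -0.75 ± 0.10 (adjusted p = 0.0213 by edgeR). The sex determination factor gene dsx had 76.3, 70, 94.1 and 85.2 CPM in trained flies and 127, 121 and 147 CPM in naïve flies (-0.70 ± 0.11; adjusted p = 0.0443 by edgeR). The insulin-repressed forkhead factor gene foxo had 87.5, 77.7, 99.3 and 94 CPM in trained flies, against 141, 118 and 130 CPM in naïve flies (-0.54 ± 0.09; adjusted p = 0.0737 by edgeR). For all 3 genes the trained libraries lay below the naïve ones without overlap. foxo was the 1 called member of 9 tested genes of insulin and nutrient signalling, beside 0.192% of all genes called lower. The median of the list was 0.20 with 6 positive estimates, so the other members did not share its direction as a group. Akt, the kinase that restrains foxo, gave 0.13 ± 0.08 and overlapped between groups.

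The other decreases were led by CG15096, at 35.4, 26.6, 28.4 and 33.3 CPM in trained trx-KD flies and 51.2, 50.1 and 56.5 CPM in naïve trx-KD flies (-0.77 ± 0.11; adjusted p = 0.0291 by edgeR). CG7135 had 14.4, 11.5, 9.96 and 9.96 CPM in trained flies, against 18.1, 20.4 and 22.8 CPM in naïve flies (-0.83 ± 0.15). CG7322 had 16.9, 11.1, 10.9 and 12.2 CPM in trained flies, against 20.9, 22.1 and 24.6 CPM in naïve flies (-0.81 ± 0.16). In each of these genes replicate 1 was the highest trained library. At lower levels, the C-type lectin gene lectin-28C (-1.41 ± 0.22) and phu (-1.21 ± 0.22) were lower, as were CG31689, an ABC transporter gene (-0.55 ± 0.09), and kst, which encodes beta-heavy spectrin (-0.33 ± 0.06).

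mt:CoI, the cytochrome oxidase subunit I gene of the mitochondrial genome, was called lower at 642, 659, 680 and 621 CPM in trained trx-KD flies, against 763, 821 and 793 CPM in naïve trx-KD flies (-0.28 ± 0.05; adjusted p = 0.0836 by edgeR). It was the 1 called member of 15 tested mitochondrial genes, of which 13 had a negative estimate and 4 were lower without overlap (median -0.53). Among all 9370 genes, 0.192% were called lower, 5.13% were lower without overlap and 4784 had a negative estimate. In control flies 16 mitochondrial genes were tested, with a median of 0.26 and none called, and mt:CoI had -0.02 ± 0.12. The summed level of the mitochondrial genes in trx-KD libraries was 6613, 4398, 2557 and 3020 CPM in trained flies and 4132, 5395 and 7078 CPM in naïve flies, so the groups overlapped. The large ribosomal RNA, mt:lrRNA, ranged from 828 to 4446 CPM in trained flies and from 1864 to 4505 CPM in naïve flies. Mitochondrial RNA lies outside the nucleus, and the part of RNA carried over with the nuclei was not tested.

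Obp83a, an antennal odorant-binding protein gene, had the largest decrease, but it rested on naïve replicates 1 and 2. It had 0.12, 0.294, 0.472 and 0.125 CPM in trained trx-KD flies, against 22.3, 34.5 and 0.478 CPM in naïve trx-KD flies. Naïve replicate 3 was at the level of the trained libraries, so the call (-6.18 ± 1.16; adjusted p = 0.0836 by edgeR) followed the other naïve libraries, which also held a10. Of 8 tested antennal genes, 7 had a negative estimate and Obp83a was the 1 called. Among all 9370 genes, 4784 had a negative estimate and 0.192% were called lower. The whole list summed to 410, 317, 346 and 347 CPM in trained flies and 478, 532 and 361 CPM in naïve flies, so trained replicate 1 exceeded naïve replicate 3.

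Lists for other cell types and processes held no called gene. Immune peptide genes had the highest median of any list, at 1.02. Of 23 tested, 22 had a positive estimate, beside 48.9% of all genes, yet none passed and none was free of overlap. Their summed level was 1475, 406, 1996 and 1552 CPM in trained trx-KD flies, against 849, 686 and 399 CPM in naïve trx-KD flies, so trained replicate 2 was as low as naïve replicate 3. Drosocin (Dro), the member with the most reads, had 476, 86, 758 and 472 CPM in trained flies and 245, 166 and 42.6 CPM in naïve flies. Fat body markers had a median of 0.19, which turned to -0.16 without trained replicate 4, the library with yolk protein reads. Glial (-0.03), hemocyte (-0.04) and muscle markers (0.15) also held no call. Of the 7 hemocyte markers tested, 3 had a positive estimate and 1, Hml, was higher without overlap, beside 6.89% of all genes. Hml had 23.6, 18.8, 21.1 and 24.6 CPM in trained flies and 13.4, 13 and 16.3 CPM in naïve flies. Its log2 fold change was 0.63 ± 0.13 in trx-KD flies (adjusted p = 0.106 by edgeR) and -0.25 in control flies.

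Genes of the chromatin complexes around trithorax held no call. The 13 tested genes of the trithorax and other H3K4 methyltransferase complexes had a median of 0.00 with 6 positive estimates, and the 11 Polycomb genes a median of -0.01 with 4. Ptip, a subunit of the Trr methyltransferase complex, came nearest to a call, at 241, 232, 286 and 268 CPM in trained trx-KD flies and 207, 194 and 192 CPM in naïve trx-KD flies (0.38 ± 0.08; adjusted p = 0.106 by edgeR). Cytosolic ribosomal protein genes (median 0.06, 43 of 76 positive), nuclear respiratory chain genes (0.02, 33 of 62) and translation initiation factor genes (0.09, 10 of 15) likewise had none called. Of the 15 Arp2/3 and actin genes 14 had a positive estimate, beside 48.9% of all genes, with a median of 0.13 and no call. Glycolysis (-0.04) and stress response genes (-0.08) had medians near 0 as well. Clock genes had a median of -0.11, with 6 of 8 estimates negative and none called, beside 4784 negative of all 9370 genes. Of 11 glycolysis genes and of the clock genes, 2 each were lower without overlap, beside 5.13% of all genes. The clock genes were Clk (-0.39 ± 0.09; adjusted p = 0.125 by edgeR) and cwo (-0.17 ± 0.07), both called lower in control flies.

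**Figure D4:**
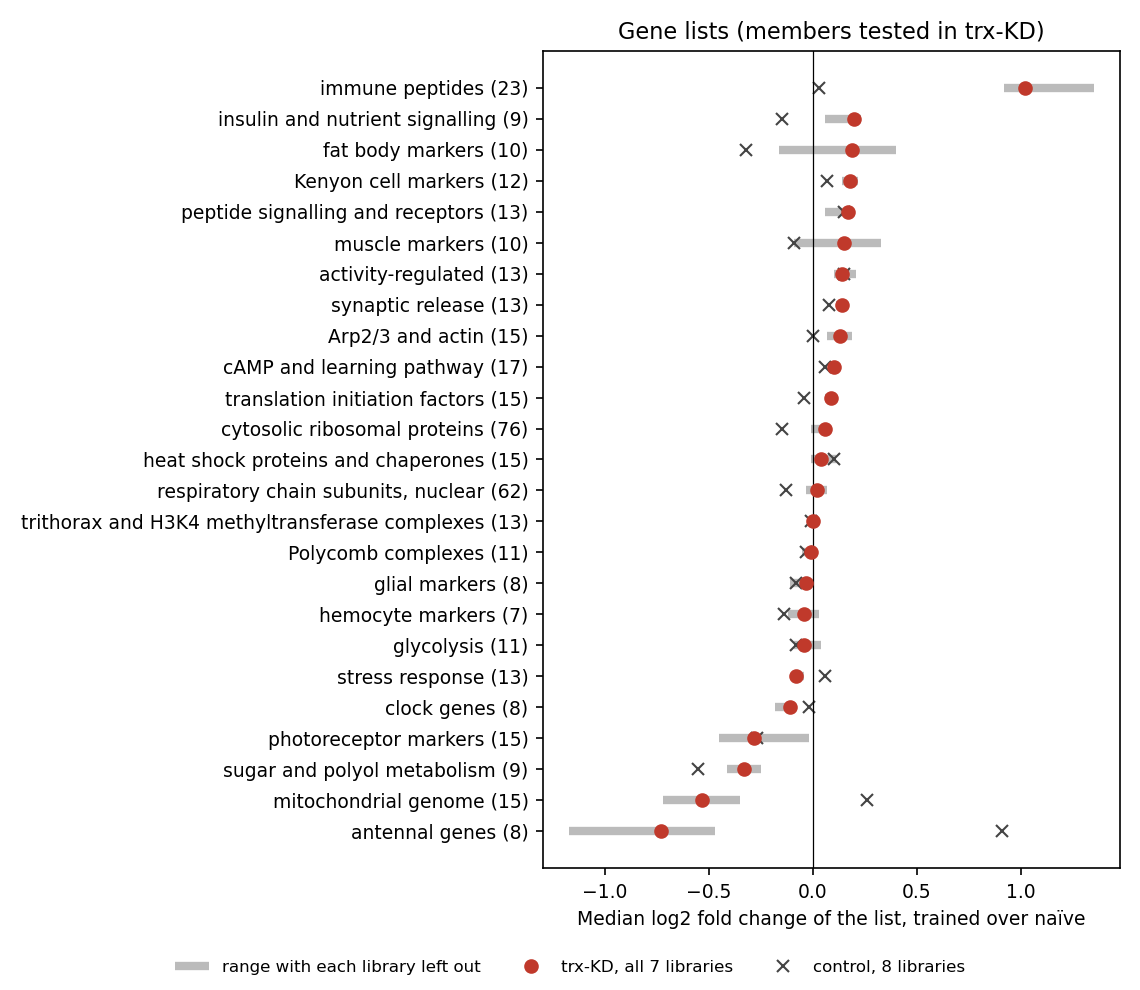
Median log2 fold change, trained over naïve (x axis), of the tested members of each list in trx-KD flies (red points; number of members in brackets) and in control flies (crosses). Grey bars span the lowest and highest trx-KD median when each library was left out. Immune peptides (1.02) and antennal genes (-0.73) were the extremes in trx-KD flies, and the photoreceptor bar reaches -0.02.

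The trx-KD response was then set beside that of the control genotype, which shares no library with it. Of the 32 genes higher after training in trx-KD flies, 31 had a positive estimate in control flies and 21 were called there in the same direction. Of the 18 lower genes, 17 had a negative estimate and 15 were called. In control flies, 405 of all 9255 genes tested (4.38%) were called, 95 (1.03%) higher and 310 (3.35%) lower, and 51% had a positive estimate. The median log2 fold change of the 32 higher genes was 0.55 in trx-KD flies and 0.40 in control flies, and that of the 18 lower genes was -0.79 in trx-KD flies and -0.65 in control flies. The genes were chosen for their values in trx-KD flies, so the 2 medians of each pair are not on an equal footing.

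**Figure D5:**
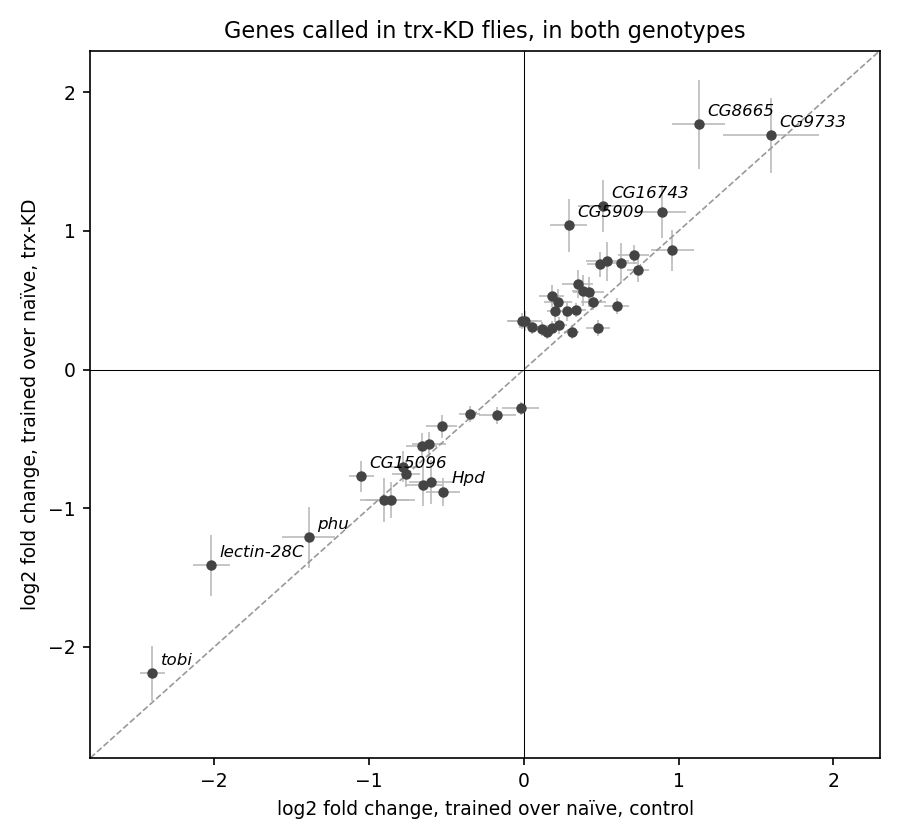
Log2 fold change, trained over naïve, in trx-KD flies (y axis) and in control flies (x axis) for the called trx-KD genes, without Ccp84Ab, Ccp84Aa and Obp83a, which lie beyond the axes. Bars are standard errors derived from the edgeR test and the dashed line marks equal values. Most points lie in the quadrants of equal sign, with tobi at -2.19 in trx-KD flies and -2.40 in control flies.

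Hr38, sr and tobi, called whichever library was left out, were also called in control flies, as were Lgr1, jeb, Kr-h1 and dsx. Hr38 had a log2 fold change of 0.83 in trx-KD flies and 0.71 in control flies, a difference of 0.11 ± 0.14 (SE). tobi had -2.19 in trx-KD flies and -2.40 in control flies, a difference of 0.20 ± 0.23. Lgr1 had 0.72 in trx-KD flies and 0.74 in control flies, and jeb 0.49 in trx-KD flies and 0.45 in control flies. Of the decreases, Kr-h1 had -0.75 in trx-KD flies and -0.76 in control flies, and dsx -0.70 in trx-KD flies and -0.78 in control flies. For sr the values were 0.76 in trx-KD flies and 0.49 in control flies, with an unadjusted p of 0.0599 for the difference by edgeR. Obp83a was the exception among the decreases in size and direction, at -6.18 in trx-KD flies and 0.96 ± 0.91 in control flies. Among the increases, only CG31191 had a negative control estimate, smaller than its SE (0.35 in trx-KD flies and -0.01 ± 0.10 in control flies). The control estimates of l(1)G0320 (0.01 ± 0.11) and kek1 (0.05 ± 0.08) were positive but also smaller than their SE.

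The difference between genotypes was itself tested. Of 9749 genes tested over all 15 libraries, edgeR called 0 at an adjusted p below 0.1, with 1055 (10.8%) at an unadjusted p below 0.05, and DESeq2 called 24, with 1099 at an unadjusted p below 0.05. Without trained trx-KD replicate 2, edgeR called 189. Of the 50 genes called in trx-KD flies, DESeq2 called 1 for the difference (Obp83a), and edgeR without that replicate called 1 (lectin-28C). With all libraries in edgeR, 11 of the 50 had an unadjusted p below 0.05 for the difference and 0 passed the adjustment. The 50 were chosen for their values in trx-KD flies, which also enter the difference. Their unadjusted p-values are therefore not on an equal footing with those of all genes and are given as a description. SIFaR had 0.53 in trx-KD flies and 0.18 in control flies, with an unadjusted p of 0.0112 for the difference by edgeR. CG16743 had 1.18 in trx-KD flies and 0.51 in control flies (unadjusted p of 0.0218), and kek1 had 0.31 in trx-KD flies and 0.05 in control flies (unadjusted p of 0.0306).

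Seen from the control side, 222 of the 310 genes lower after training in control flies had a negative estimate in trx-KD flies and 15 (4.84%) were called there. Their median was -0.20 in trx-KD flies and -0.53 in control flies. Among all 9370 genes tested in trx-KD flies, 4784 had a negative estimate and 0.192% were called lower. Of the 94 tested genes that were higher in control flies, 85 had a positive estimate in trx-KD flies, beside 48.9% of all genes. Of these 94, 21 (22.3%) were called higher in trx-KD flies, beside 0.342% of all genes. The median of the 94 was 0.27 in trx-KD flies and 0.32 in control flies. These genes were chosen for their values in control flies, and trx-KD flies had 1 library fewer, so the smaller trx-KD values and counts are given as a description. Of the 405 genes called in control flies, the difference was called by DESeq2 for 10 and by edgeR without trained trx-KD replicate 2 for 75. Over all genes, these 2 fits called 24 and 189. With all libraries, edgeR called 0. The fat body storage protein gene Lsp2 had -0.43 in trx-KD flies and -2.29 in control flies (unadjusted p = 0.000944 for the difference by edgeR), and the lipophorin gene apolpp had 0.07 in trx-KD flies and -0.48 in control flies (unadjusted p = 0.00393).

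The counting could mix genes at overlapping loci, because the strand setting used to count the reads is not given in the sources used here. Of the 50 called genes, 17 overlap an annotated gene on the other strand, among them Hr38, Tig, CG8665, SIFaR, Hpd, tobi, dsx and ACC, and reads of such pairs cannot be told apart if strand was not used. sr, Kr-h1, CG31689, ChT, dsx, CG8665 and CG31191 overlap a gene on their own strand.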

How the data were processed

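RNA of INTACT-purified MB nuclei was sequenced in 7 trx-KD and 8 control libraries prepared with a Nugen Ovation Drosophila kit. The authors deposited 1 table of raw read counts per gene and library. The submitters' processing notes name STAR 2.5.3a, HTSeq 0.7.1 and the dm6 build, and the annotation release and strand setting are not given in the sources used here. Of the 17560 features in a table, 17253 were matched by ID to a name and to BDGP6.54 coordinates. The tag transgene (0.437% to 0.681% of reads) was left out.

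Genes were kept by filterByExpr (minimum count 10, minimum total 15), scaled by TMM and tested with edgeR 4.0.16 (quasi-likelihood, R 4.3.3) on the 7 trx-KD libraries alone, with p-values adjusted over all genes by Benjamini-Hochberg and called below 0.1. The control response was fitted on its 8 libraries and the difference on all 15. CPM are scaled by TMM over the 7 trx-KD libraries. The trx values on the common scale are scaled by TMM over all 15. The SE after ± is the absolute log2 fold change divided by the square root of the edgeR F statistic. Depths of 14154045 to 45976562 reads limit precision for low genes. DESeq2 1.42.0, other scalings, filters, a replicate block and leaving out libraries were alternatives.

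The members and gene lists were chosen with earlier results of these data known. The text names trx, the called genes (with values per library for the 15 largest increases and 10 largest decreases whose mean log2 CPM was 3 or more), all activity-regulated genes, and of the other lists the called members and up to 4 with the highest mean expression. The yolk protein genes, a10, Obp28a, Orco, Hml and Clk fall outside this rule and were chosen after their values were seen. Promoter sequences were not analysed here.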

Additional observations from a re-analysis of the deposited data

Results flagged for a closer look

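Of 75 sets of values looked at (groups of 4 trained libraries), 5 had 1 library far from the other 3, measured as the gap to its nearest neighbour over the range of the group. Chance gives about 1 in 20. These were trained replicate 1 for tobi (48.4 CPM), Rbp (1493 CPM) and CG31191 (326 CPM), trained replicate 2 for Hr38 (344 CPM) and trained replicate 4 for CG32204 (695 CPM). In tobi, Rbp, CG31191 and Hr38 the odd library was the trained one nearest to the naïve libraries, whereas in CG32204 it was the one farthest from them. No explanation for these libraries was tested.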

How the results depend on the processing

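The number of genes called in trx-KD flies moved with the processing. All 50 kept their direction under every alternative that tested them, which groups without overlap all but fix in advance. In place of 50 genes (32 higher, 18 lower), an adjusted p below 0.05 gave 18 (11 higher, 7 lower), DESeq2 244 (162 higher, 82 lower; 45 of the 50 among them), no filter on low counts 91 (57 and 34), and 1 fit over all 15 libraries 125 (83 and 42). Scaling by library size alone gave 16 higher genes in place of 32. Leaving out each library in turn gave 4 to 160 genes, 2 to 135 higher and 2 to 76 lower. Without naïve replicates 1 and 2 together, chosen after seeing the data, there were 0, with 0 higher and 0 lower (324 at an unadjusted p below 0.05 by edgeR; DESeq2 was not run on these libraries).

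A replicate block gave 8 called genes in trx-KD flies (4 higher, 4 lower; 7 of the 50 among them), and in control flies 246 in place of 405, with 39 higher in place of 95. The deviations of same-numbered trained and naïve trx-KD libraries correlated at -0.066, 0.07 and -0.059. With so few libraries, these values cannot decide whether the replicate numbers pair the samples.

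In control flies an adjusted p below 0.05 gave 56 higher genes, and leaving out a library gave 230 to 711 genes (47 to 223 higher, 183 to 488 lower). The lowest of these came without trained replicate 4 and the highest without naïve replicate 4. The difference between genotypes gave 0 genes by edgeR (1055 at an unadjusted p below 0.05), 24 by DESeq2 (18 larger and 6 smaller in trx-KD flies), and 0 to 189 with each library left out (0 to 157 larger, 0 to 32 smaller), where only the fit without trained trx-KD replicate 2 gave any. The causes were not tested.

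Of the activity-regulated genes outside the calls, Jra had a log2 fold change of 0 with library size alone and -0.14 without naïve replicates 1 and 2, and 0 to 0.15 with each library left out. Arc2 had -0.04 with the block and -0.04 to 0.23 with each library left out, Arc1 -0.09 to 0.02, dysf -0.08 to 0.16, and CrebB -0.01 with library size alone. Ets21C and Atf3 passed the threshold with DESeq2 (adjusted p = 0.00155 and 0.0416), in the fit over all 15 libraries (0.0894 and 0.0985) and without trained replicate 2 (0.00765 and 0.0598), and Ets21C also without a filter (0.0586). Genes with few reads, such as Ccp84Aa, are limited by depth.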
